A study of Mus musculus with 6 samples.

Results

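Cholesterol is made in the endoplasmic reticulum from acetyl-CoA by way of mevalonate, squalene and lanosterol. The pathway is switched on by SREBP2, a membrane-bound transcription factor that the escort protein SCAP carries to the Golgi when sterols are scarce, and that INSIG proteins hold back when sterols are plentiful. Surplus sterol activates the LXR nuclear receptors, which raise export through ABC transporters, while cholesterol taken up in lipoproteins or dead cells leaves the lysosome through NPC1 and NPC2. In the liver, hepatocytes are the main site of synthesis, macrophages are known for handling cholesterol from engulfed material, and lymphatic vessels return cholesterol-carrying particles from tissue to blood. The genes described here are 31 of the 22027 in the table, taken by name: 18 enzymes of synthesis, 5 genes of SREBP2 control and sterol transfer, 4 of LXR signalling and efflux, and 4 of lysosomal release and esterification.

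RNA-seq values came from cells labelled as liver lymphatic endothelium, sorted from IL7-GFP mice, which report interleukin 7 expression by green fluorescence. There were 3 libraries from mice 3 days past ischemia/reperfusion (I/R), in which hepatic blood flow is stopped and restored, set against 3 libraries from sham-operated mice. Every group carried the reporter, and the column names read "GFP plus". The sources used here do not state strain, age, sex, the time of the sham sample or the gating markers. No label ties a library to a separate animal, so each p-value reflects spread among these 6 libraries, which may be technical. Each library began with 20000 to 50000 cells, and depth was 6297308, 17086746 and 13323676 recovered counts in I/R libraries 1, 2 and 3, against 6638130, 15650152 and 8616652 in sham libraries 1, 2 and 3.

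The labelled cell type was only part of what the libraries held. The lymphatic markers Prox1, which encodes a lineage transcription factor, and Mmrn1, a secreted matrix glycoprotein, were present in all 6 libraries. So were markers of Kupffer cells, the resident liver macrophages. Per kilobase of exon, the 10 macrophage markers ranked from 6 (Cd5l) to 137 (Timd4) among all genes, and the 7 lymphatic markers from 47 (the chemokine gene Ccl21a) to 3053 (Reln), with Mmrn1 at 242 and Prox1 at 2639. Alb, the hepatocyte gene for albumin, ranked 22. The T cell gene Cd3e, the cytotoxic lymphocyte gene Nkg7 and the neutrophil gene Ly6g were listed at 0 in every library. Other members of their marker lists were not. Over the 6 libraries Ltf ranged from 31.1 to 513, S100a9 from 16.0 to 86.4 and Cd79b from 38.0 to 96.8, and Cd3g reached 20.6 in sham library 2. The zeros therefore do not show that lymphocytes or neutrophils were absent. In such mixed libraries, fewer cells of a type and less RNA per cell cannot be told apart.

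Of the 31 sterol genes, 0 passed the threshold of an adjusted p under 0.05 in limma, and 0 passed in edgeR or DESeq2 on the recovered counts. Over all 13434 tested genes limma called 0.0298% higher and 0.0% lower in I/R. At an unadjusted p under 0.05 there were 3 lower members, Mvd, Fdps and Cyp51, and 0 higher ones, where 1.48% of all tested genes were lower and 2.96% higher. The split of all tested genes at that level was 397 higher and 199 lower, and 490 and 130 when column totals were made equal, where Cyp51 left the 3. The members at that level varied with single libraries: Mvd alone was left without sham library 3 and without the trend, and Hmgcs1, Mvd, Idi1, Fdps and Cyp51 made 5 without sham library 2. Sqle replaced Fdps without I/R library 1, Cyp51 dropped out without I/R library 2 or 3, and without sham library 1 there were 2 lower members, Mvd and Sqle, and 1 higher, Lipa. The groups did not overlap for 2 members, Mvd and Srebf2, both lower in I/R, and for 4.48% of all tested genes in that direction and 5.11% in the other. All 31 members passed the filter on low values.

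The size of the differences was uneven across the pathway. Of the 31 members, 24 had a negative log2 fold change with a median of -0.18, against 47.9% negative and a median of 0.02 over all tested genes. Among the 18 enzymes of synthesis the median was -0.36 with 14 negative, and among the 13 remaining members it was -0.09 with 10 negative. By role, the median was -0.42 for the 7 mevalonate enzymes, all of them negative, and -0.33 for the 11 enzymes from squalene onwards, with 7 negative. It was -0.11 for SREBP2 control and transfer, -0.18 for LXR and efflux, and 0.07 for lysosomal release and esterification. Without sham library 2 the enzyme median was -0.53 and that of the mevalonate enzymes -0.73, and without sham library 3 the enzyme median was -0.19. For the enzymes from squalene onwards it was -0.15 without I/R library 3 and -0.15 without sham library 3. The medians of the smaller roles moved as far relative to their size: leaving out 1 library gave -0.29 (without I/R library 3) to -0.041 (without I/R library 1) for LXR and efflux. It gave -0.22 (without sham library 1) to -0.031 (without I/R library 2) for SREBP2 control, and 0.17 (without sham library 1) to -0.012 (without I/R library 2) for the lysosomal genes. For the 13 genes outside synthesis it gave -0.16 (without sham library 1) to -0.017 (without sham library 2). The members were chosen with results of these data known, so these counts and medians are a description without a test.

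**Figure D1:**
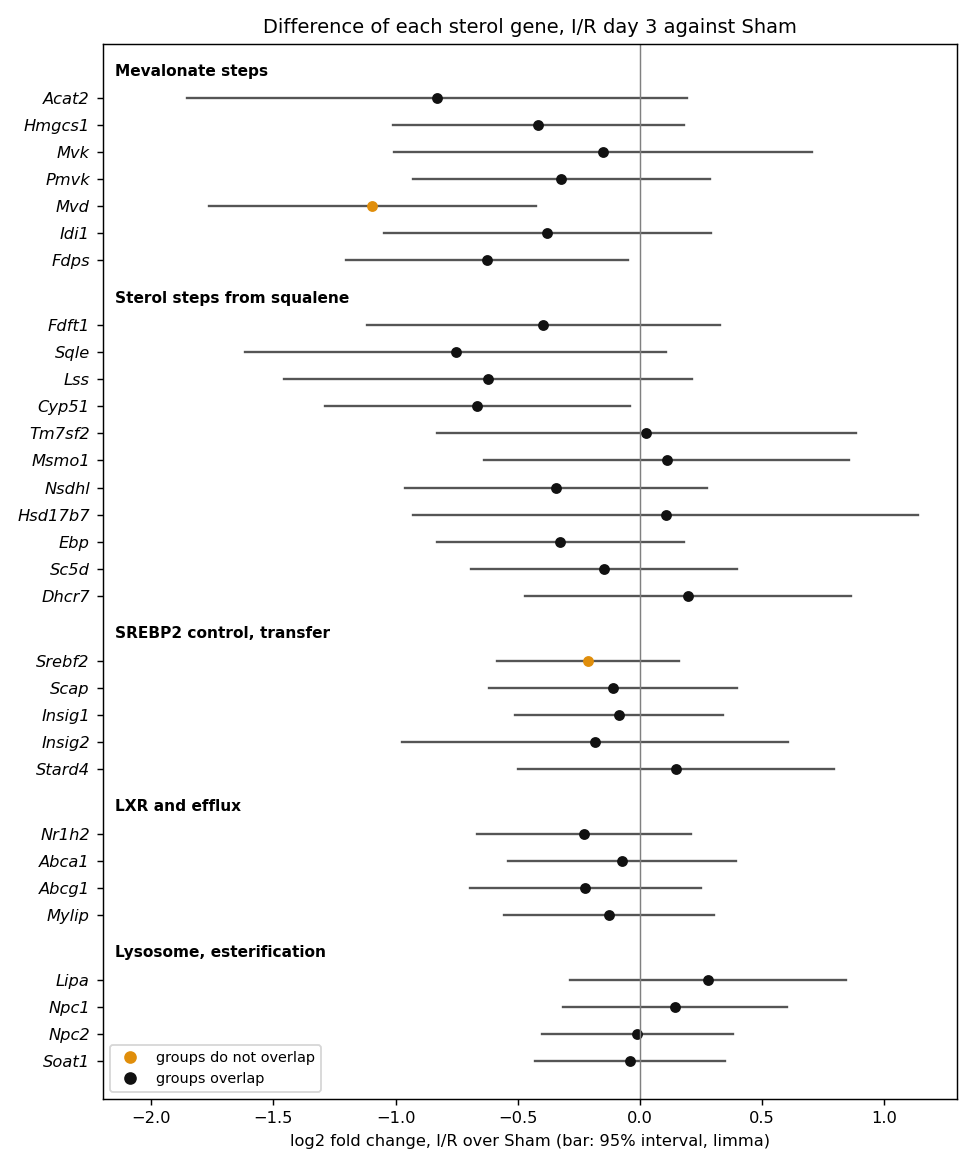
Log2 fold change of each sterol gene, I/R over sham, on the x axis, with genes grouped by role down the page. Points are limma estimates from 3 libraries a group, bars are 95% intervals, and orange marks the 2 genes whose groups do not overlap. The intervals of Mvd, Fdps and Cyp51 lie below 0 and those of the other 28 genes include 0.

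Promoters of 3 members are printed because SREBP2 is known to act through promoter elements. Hmgcs1 held the only match found among the members to the string searched for the sterol regulatory element. Mvd and Srebf2 were the 2 members whose groups did not overlap. The letters searched on both strands were TCACNCCAC for the sterol regulatory element, which SREBP2 binds, and CCAAT for the box bound by its partner NF-Y, and capitals mark matches to either, with ATTGG as the other strand of CCAAT. Each sequence covers 250 bases before and 50 after a RefSeq gene start in GRCm38.p6, written 5′ to 3′ on the gene's strand. Hmgcs1 is at chr13:119690101-119690400 on the plus strand, Mvd at chr8:122443373-122443672 on the minus strand, and Srebf2 at chr15:82147019-82147318 on the plus strand.
Hmgcs1: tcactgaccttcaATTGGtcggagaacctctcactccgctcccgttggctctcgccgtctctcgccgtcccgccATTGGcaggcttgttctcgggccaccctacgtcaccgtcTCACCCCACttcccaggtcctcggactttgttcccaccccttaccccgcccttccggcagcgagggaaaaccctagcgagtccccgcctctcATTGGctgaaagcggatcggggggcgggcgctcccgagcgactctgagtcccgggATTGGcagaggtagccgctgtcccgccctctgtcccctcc
Mvd: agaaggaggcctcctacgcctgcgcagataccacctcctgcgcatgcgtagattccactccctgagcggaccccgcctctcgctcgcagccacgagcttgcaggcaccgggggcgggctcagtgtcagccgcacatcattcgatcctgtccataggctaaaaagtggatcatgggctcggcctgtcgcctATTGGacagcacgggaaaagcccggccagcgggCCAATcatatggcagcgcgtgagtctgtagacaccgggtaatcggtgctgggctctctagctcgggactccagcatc
Srebf2: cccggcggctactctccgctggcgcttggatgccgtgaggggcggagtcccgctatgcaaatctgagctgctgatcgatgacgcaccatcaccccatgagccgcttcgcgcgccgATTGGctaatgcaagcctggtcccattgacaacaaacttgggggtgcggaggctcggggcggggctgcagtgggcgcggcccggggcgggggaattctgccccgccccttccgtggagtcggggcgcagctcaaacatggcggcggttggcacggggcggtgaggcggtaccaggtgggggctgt

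The Hmgcs1 promoter held 1 match to the sterol regulatory element, beginning 137 bases before the start, and it was the only match among the 25 members found in the promoter table, where 1.46% of tested genes had one. Its CCAAT boxes began at -237, -176, -45 and 11 relative to the start, all on the other strand. Those of Mvd began at -60 and -27, and the single box of Srebf2 at -135. Of the 25 members, 21 had a CCAAT box in the window, or 84%, against 42.6% of tested genes. The Sp1 box GGGCGG was in 23, or 92%, against 66.7%, and the nuclear receptor element AGGTCA in 3, or 12%, against 15.3%. Over all genes in the promoter table the shares were 1.44% for the sterol regulatory element, 41.1% for CCAAT, 38.2% for GGGCGG and 18.1% for AGGTCA. A match is a string of letters and not a measured binding site, and a promoter without a match may hold an element with other letters. Fdps, Fdft1, Sqle, Stard4, Abcg1 and Npc1 were not matched in the table.

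Mvd had the largest difference of the 31 genes. It encodes mevalonate diphosphate decarboxylase, which makes isopentenyl diphosphate, and its gene body lies at chr8:122433601-122443422 on the minus strand in GRCm38. Its normalised counts were 70.0, 85.2 and 88.8 in I/R libraries 1, 2 and 3, against 171, 152 and 202 in sham libraries 1, 2 and 3. The highest I/R library was thus well below the lowest sham library. The means were 81.3 ± 9.97 in I/R and 175 ± 25.1 in sham (SD, n = 3 each), which put the log2 fold change at -1.09 with an SE of 0.30 and a 95% interval of -1.76 to -0.43 (adjusted p = 0.803 by limma). The difference rested on 46, 140 and 114 recovered counts in I/R, against 105, 229 and 169 in sham. Its unadjusted p was 0.0043, and 0.0019 to 0.025 over the 18 alternative analyses.

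The other enzymes of the mevalonate part ran from acetyl-CoA to farnesyl diphosphate. Fdps, farnesyl diphosphate synthase, stood at 487, 698 and 715 in the I/R libraries, against 1238, 665 and 1085 in the sham libraries. Sham library 2 lay inside the I/R range, so the groups overlapped, and the log2 fold change was -0.63 (SE 0.26, 95% interval -1.20 to -0.05, unadjusted p = 0.036, limma adjusted p = 0.985). Hmgcs1, the cytosolic HMG-CoA synthase, had 1220.3, 879 and 974 in I/R, against 1529, 873 and 1857 in sham, with sham library 2 just below the lowest I/R value. Its log2 fold change was -0.42 (SE 0.27), and -0.19 without sham library 3 or -0.73 without sham library 2. Idi1, which isomerises isopentenyl diphosphate, had 318, 348 and 265 in I/R, against 567, 249 and 459 in sham, with sham library 2 lowest of all 6, and its log2 fold change was -0.38 (SE 0.30). Leaving out sham library 1 made this -0.13, and leaving out sham library 2 made it -0.72.

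Acat2, the cytosolic thiolase of the opening step, had 41.1, 50.5 and 72.4 in I/R, against 166, 63.2 and 82.5 in sham, and rested on 27 to 102 recovered counts a library. Its log2 fold change was -0.83 (SE 0.46), the second most negative here, with an interval of -1.85 to 0.19, and it was -0.43 without sham library 1. The kinases Pmvk and Mvk differed less. Pmvk, phosphomevalonate kinase, had 143, 178 and 201 in I/R, against 272, 203 and 182 in sham (log2 fold change -0.32, SE 0.27). Mvk, mevalonate kinase, had 108, 96.2 and 69.3 in I/R, against 65.2, 116 and 130.3 in sham, with sham library 1 the lowest of the 6, and its log2 fold change of -0.15 (SE 0.39) turned positive without I/R library 3 or sham library 3. Limma adjusted p was 0.985 to 0.995 for these 2 kinases, Acat2, Hmgcs1 and Idi1.

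**Figure D2:**
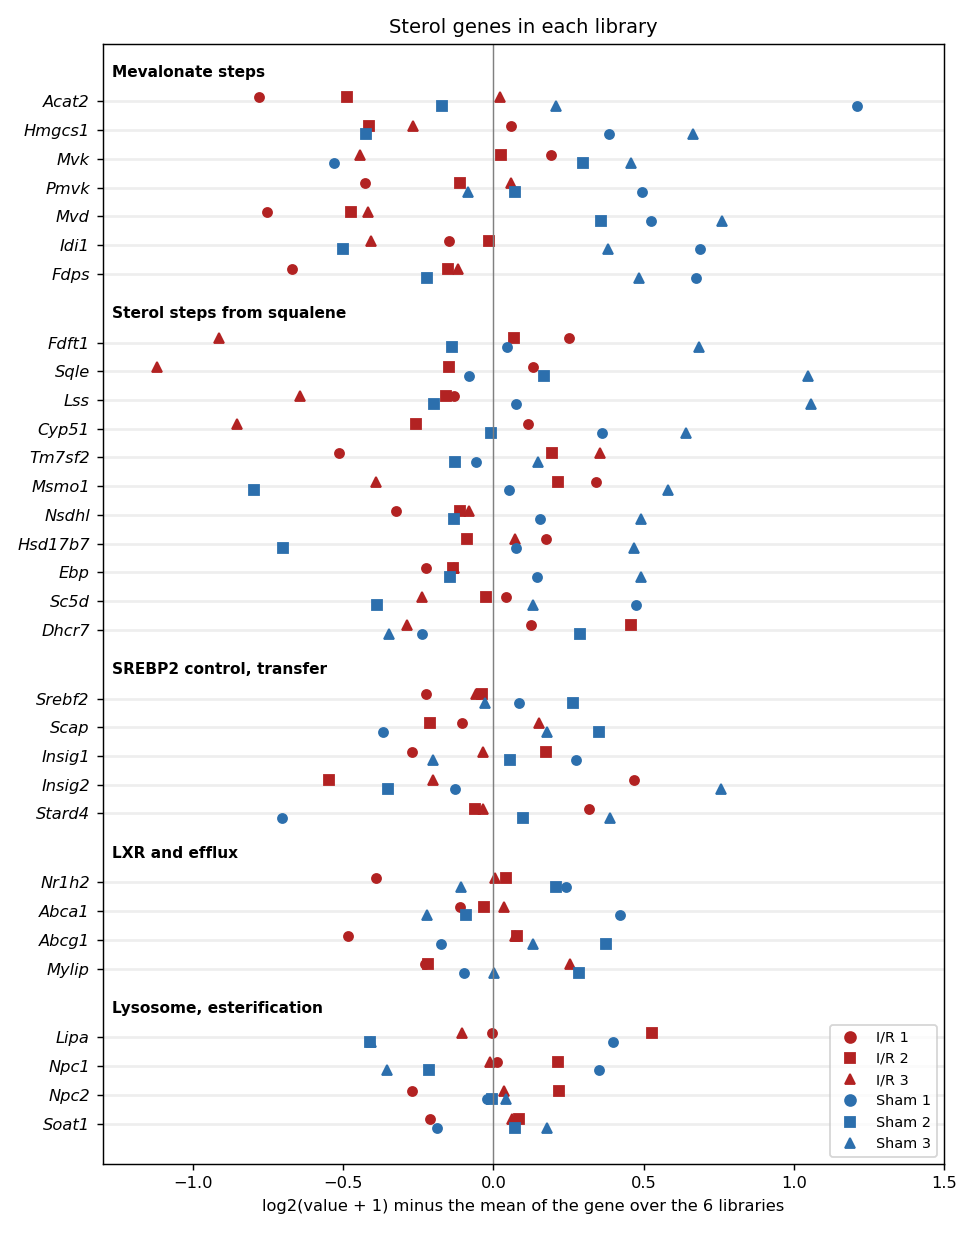
Each sterol gene in each library, as log2(value + 1) minus the gene's mean over the 6 libraries on the x axis, with I/R libraries in red above sham libraries in blue. Sham libraries 1 and 3 lie to the right for most enzymes and sham library 2 lies among the I/R libraries. Most genes of control, efflux and the lysosome sit closer to 0, while Insig2, Stard4 and Lipa spread more widely.

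The enzymes from squalene onwards, which close the sterol rings and trim lanosterol to cholesterol, had a second pattern among the sham libraries. Sham library 3 held the highest value of all 6 libraries for 8 of these 11 enzymes and I/R library 3 the lowest for 4. Cyp51, the lanosterol demethylase at chr5:4081145-4104746 on the minus strand, had 446, 344 and 227 in I/R, against 529.6, 409.7 and 643 in sham. I/R library 1 lay above sham library 2, so the groups overlapped, and the log2 fold change was -0.67 (SE 0.28, 95% interval -1.29 to -0.04, unadjusted p = 0.039, limma adjusted p = 0.985). Sqle, squalene epoxidase, a rate-controlling enzyme of the later pathway, had 240.4, 198 and 100.4 in I/R, against 207, 246 and 454 in sham, with 1 low I/R library and 1 high sham library. Its log2 fold change was -0.75 (SE 0.39, interval -1.62 to 0.11), and it was -0.38 without I/R library 3 and -0.42 without sham library 3. That of Cyp51 was -0.40 without I/R library 3.

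Lss, lanosterol synthase, had 117, 115 and 81.7 in I/R, against 135, 112 and 268 in sham, a log2 fold change of -0.62 (SE 0.38) that was -0.25 without sham library 3. Fdft1, squalene synthase, had 581, 512 and 258 in I/R, against 504, 443 and 785 in sham, with a log2 fold change of -0.39 (SE 0.33) that was -0.15 without sham library 3 and -0.04 without I/R library 3. In both genes sham library 3 was the highest and I/R library 3 the lowest of the 6. Nsdhl, which removes methyl groups from the sterol ring, had 131, 152 and 155 in I/R, against 183, 149.7 and 231 in sham. Ebp, the sterol isomerase, had 294, 313 and 314 in I/R, against 379.7, 311 and 483 in sham. In both of these X-linked genes the I/R values were tight and just 1 sham library, library 2, fell among them, and the log2 fold change was -0.34 for Nsdhl (SE 0.28) and -0.33 for Ebp (SE 0.23).

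The remaining 5 late enzymes had fold changes near 0. Sc5d, lathosterol oxidase, had 467, 446 and 385 in I/R, against 631, 347 and 497 in sham (log2 fold change -0.15, SE 0.25). Msmo1, the methylsterol monooxygenase, had 612, 560.1 and 367 in I/R, against 500.3, 277 and 722 in sham (0.11, SE 0.34). Dhcr7, the reductase that completes cholesterol, had 199, 251 and 149 in I/R, against 155, 223 and 143 in sham (0.20, SE 0.30). The groups overlapped for all 3, and the sign for Sc5d and Msmo1 turned when single libraries were left out. Tm7sf2, a sterol reductase, ranged from 53.3 to 98.1 in I/R, against 69.8 to 84.8 in sham, and Hsd17b7, a ketosteroid reductase, from 49.3 to 59.3 in I/R, against 31.9 to 72.9 in sham. Their log2 fold changes were 0.03 (SE 0.39) and 0.11 (SE 0.47), and both were negative under quantile normalisation. Limma adjusted p over the late enzymes other than Cyp51 was 0.985 to 0.998.

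**Figure D3:**
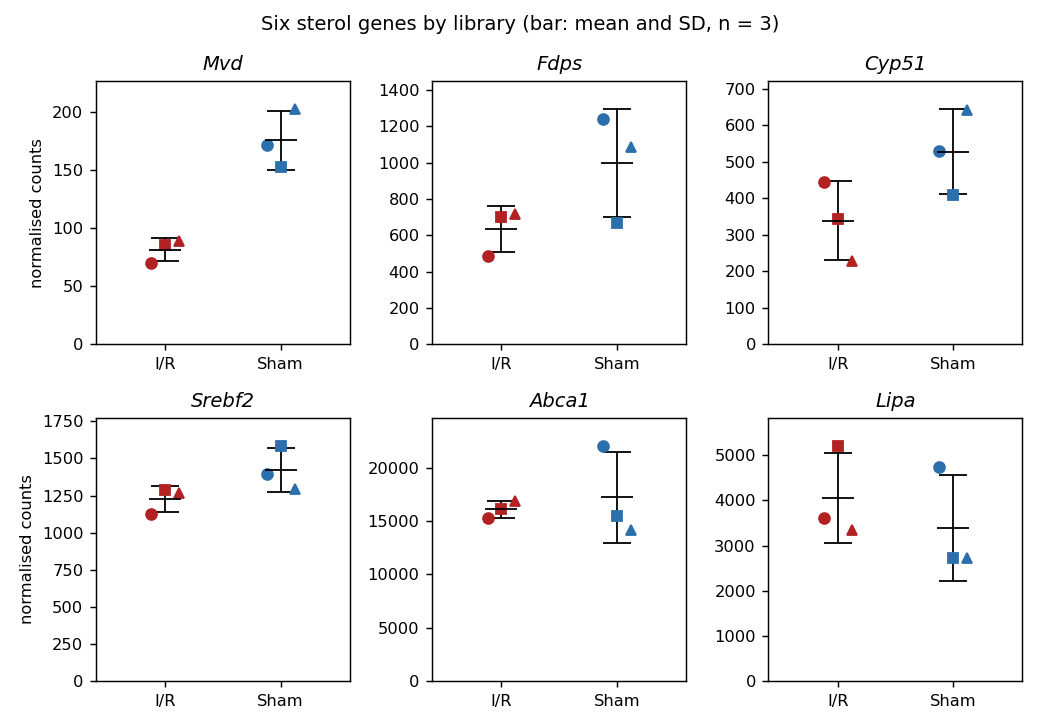
Normalised counts of 6 genes by library, with I/R in red left of sham in blue, the y axis starting at 0, and bars for the mean and SD of 3 libraries. Mvd and Srebf2 have no overlap between the groups, Fdps and Cyp51 overlap at 1 sham library, and Abca1 and Lipa overlap widely.

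The spread within each group differed between the early and late enzymes. The highest value was a median of 1.40 times the lowest among the I/R libraries and 2.00 times among the sham libraries for the 7 mevalonate enzymes, and the sham range was the wider for all 7. For the 11 late enzymes the medians were 1.66 in I/R and 1.77 in sham, with sham wider for 6. Over all tested genes they were 1.48 in I/R and 1.59 in sham, with sham wider for 7282 of 13434. Sham library 2 was below both other sham libraries for 14 of 18 enzymes, or 77.8%, and for 29.6% of all tested genes. Sham library 3 held the highest sham value for 12 of 18, or 66.7%, and for 30.8% of all tested genes. For the 13 members outside synthesis sham library 2 was below both others in 2. These shares were read from the values and carry no test.

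Summed over the 18 enzymes, the normalised counts were 5587, 5364 and 4577 in I/R libraries 1, 2 and 3, against 7361, 4941 and 8380.4 in sham libraries 1, 2 and 3. The I/R sums thus lay around that of sham library 2 and below those of the other 2. The sums of 9 hepatocyte markers were 63467, 50535 and 44947 in I/R, against 65615, 42035 and 72497 in sham, with the same sham library lowest and the same sham library highest. Alb alone gave 40775, 29833 and 26138 of these sums in I/R, and 35047, 28530 and 43365 in sham. Among the sham libraries Apoa1, Ttr, Cyp3a11 and Cyp2e1 were highest in library 1 and the remaining markers in library 3. The mean log2 value over the list was 11.82, 10.88 and 11.86 in sham libraries 1, 2 and 3, so libraries 1 and 3 were close. Of those 9 markers 4 had positive and 5 negative fold changes, with a median of -0.03, and 0 were called or listed at 0. The 10 macrophage markers summed to 157592, 236129 and 263173 in I/R, against 228174, 261844 and 251324 in sham, with a median fold change of -0.21, 1 positive member and 0 called. The 7 lymphatic markers summed to 44116, 27295 and 43051 in I/R, against 23415, 30069 and 8396 in sham, with all 7 fold changes positive, a median of 1.04 and 0 called. Sham library 3, highest for the enzymes and for the hepatocyte list, was the lowest for the lymphatic list. The part of these cell types in the enzyme values was not tested.

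**Figure D4:**
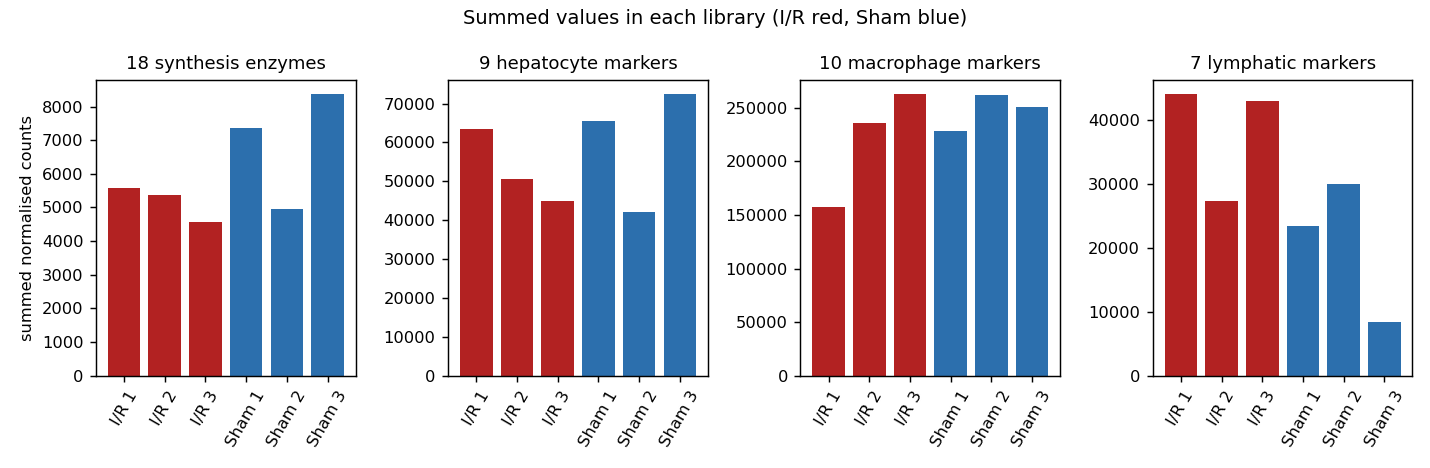
Summed normalised counts in each library (y axes from 0), I/R in red and sham in blue, for the 18 synthesis enzymes and for the marker lists of hepatocytes, macrophages and lymphatic endothelium. Sham library 2 has the lowest and sham library 3 the highest hepatocyte sum, in which Alb has a large share. Among the sham libraries the enzyme sums follow the same order.

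The other marker lists were measured in the same way. The pan-endothelial list summed to 16414 to 24711 in I/R, against 14746 to 22034 in sham, with 6 of 7 fold changes positive. Cdh5, the negative member, held a large share of each sum, at 8965 to 15254 in I/R and 10659 to 15657 in sham. The mean log2 value over that list was 10.20 to 10.93 in I/R, against 9.63 to 10.38 in sham. The sinusoidal list summed to 5275 to 8827 in I/R, against 6685 to 7526 in sham, with 3 of 6 fold changes positive. Monocyte and neutrophil markers summed to 2016 to 2354 in I/R, against 1289 to 2115 in sham, with 6 of 8 tested members positive. Plac8, a gene of myeloid cells, held a large share of each sum, and the mean log2 value over the list did not overlap, at 5.87 to 6.32 in I/R against 4.57 to 5.25 in sham. The 4.57 was that of sham library 1, where Ly6c2 and Chil3 were at 0. The members were uneven. The ratio of means, I/R over sham, was 0.99 for Ly6c2, 0.999 for S100a9, 0.86 for S100a8 and 0.88 for Plac8. It was 1.87 for Mmp9 and 3.21 for Ltf. Ccr2, the chemokine receptor of recruited monocytes, had 307, 429 and 237 in I/R, against 44.0, 69.8 and 83.6 in sham (log2 fold change 2.29, SE 0.35, adjusted p = 0.115 by limma and 1.05e-05 by DESeq2). Chil3, a chitinase-like protein gene of myeloid cells, had 116, 231 and 148 in I/R, against 0, 22.0 and 25.1 in sham (adjusted p = 0.706 by limma and 0.0025 by DESeq2). For both genes the lowest I/R value exceeded the highest sham value, and their part in the sterol gene values was not tested. Stellate cell markers summed to 5067 to 7051 in I/R, against 1949 to 6559 in sham, with 4 of 7 positive, Reln among them. Reln is also in the lymphatic list. It alone gave 5459, 3050 and 4799 of the stellate sums in I/R libraries 1, 2 and 3. In sham libraries 1, 2 and 3 it gave 3024, 4046 and 756, so these sums are no separate measure of stellate cells. Cholangiocyte markers summed to 6418 to 19462 in I/R, against 10789.7 to 13939 in sham, with 2 of 5 positive. Spp1 alone gave 15923, 12089 and 5486 of these sums in I/R libraries 1, 2 and 3. It gave 9319, 8486 and 11245 in sham libraries 1, 2 and 3, so the sums mostly follow this gene. Of 8 lymphocyte markers 2 were tested, and all 8 together summed to 254 to 312 in I/R, against 265 to 393 in sham. In these 6 lists limma and edgeR called 0 members and DESeq2 called 3, all higher in I/R: Ccr2, Chil3 and, of the sinusoidal list, Fcgr2b.

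The control genes of SREBP2 differed little. Srebf2, which encodes SREBP2 itself and lies at chr15:82147181-82205379 on the plus strand, had 1127, 1285 and 1267 in I/R, against 1398, 1584 and 1292 in sham. Every I/R library was below every sham library, by the small gap between I/R library 2 and sham library 3. The means were 1226 ± 86.0 in I/R and 1425 ± 148 in sham (SD, n = 3 each), and the log2 fold change was -0.21 (SE 0.17, 95% interval -0.59 to 0.16, limma adjusted p = 0.985). Insig1, a target of SREBP2 as well as its brake, had 1299, 1769 and 1528 in I/R, against 1897, 1626 and 1361 in sham, and its log2 fold change was -0.09 (SE 0.19) with an interval of -0.51 to 0.34. The values of the 2 groups interleaved, unlike those of the target Mvd, though the difference between the 2 genes was not tested.

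Scap, the escort of SREBP2, had 549, 510.2 and 657 in I/R, against 458, 755 and 669 in sham (log2 fold change -0.11, SE 0.23). Insig2, the second retention protein, had 321, 158 and 202 in I/R, against 212, 182 and 392 in sham (-0.18, SE 0.36). Stard4, a cytosolic sterol carrier and known SREBP2 target, had 428, 329 and 335 in I/R, against 210.2, 367 and 449 in sham (0.15, SE 0.29). In each of these 3 genes the groups overlapped, and the sign turned in Scap without sham library 2, in Insig2 without I/R library 2 or sham library 3, and in Stard4 without sham library 1.

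Abca1 had the highest level per length of the 31 genes, and the efflux genes differed little between the groups. Abca1 encodes the transporter that loads cholesterol onto lipid-poor apolipoproteins, and it had 15252, 16125 and 16893 in I/R, against 22056, 15467 and 14147 in sham. The 3 I/R values lay inside the sham range, with sham library 1 alone above them, and the log2 fold change was -0.07 (SE 0.21, 95% interval -0.54 to 0.39, limma adjusted p = 0.995). It was 0.12 without sham library 1 and 0.05 under quantile normalisation. Abcg1, which exports cholesterol to mature lipoprotein particles, had 1973, 2912 and 2903 in I/R, against 2448, 3581 and 3027 in sham (log2 fold change -0.22, SE 0.21, interval -0.69 to 0.25). I/R library 1 was the lowest and sham library 2 the highest.

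Mylip, an LXR target whose ubiquitin ligase removes lipoprotein receptors from the cell surface, had 1392, 1400.3 and 1942 in I/R, against 1522, 1986 and 1632 in sham (log2 fold change -0.13, SE 0.19). Nr1h2, the gene of the widely expressed LXR beta, had 601, 812 and 792 in I/R, against 932, 910.0 and 731 in sham (-0.23, SE 0.20). Both overlapped between the groups. All 4 fold changes of this role were negative by limma as deposited, but each interval included 0 and that of Abca1 turned as given above.

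Genes that free and store lysosomal cholesterol had the only positive median of the 5 roles, negative without I/R library 2 as given above. Lipa, lysosomal acid lipase, had 3599.9, 5208 and 3353 in I/R, against 4752, 2715 and 2723 in sham, with I/R library 2 and sham library 1 apart from the remaining 4. Its log2 fold change was 0.28 (SE 0.25, interval -0.28 to 0.84, limma adjusted p = 0.985) and 0.55 without sham library 1. Npc1, the membrane transporter that takes cholesterol out of the lysosome, had 1525, 1753 and 1498 in I/R, against 1928, 1304 and 1182 in sham (0.14, SE 0.21).

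Npc2, the soluble carrier that hands cholesterol to NPC1, had 4289, 6029 and 5309.6 in I/R, against 5097, 5159 and 5332 in sham. Its sham values were the tightest of all 31 genes, with the highest 1.05 times the lowest, and the log2 fold change was -0.01 (SE 0.18, interval -0.40 to 0.38). Soat1, which esterifies cholesterol for storage, had 1601, 1969 and 1936 in I/R, against 1629.5, 1949 and 2097 in sham (-0.04, SE 0.18, interval -0.43 to 0.35). For both genes the sign of these small values depended on the scaling.

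Levels were also compared per kilobase of exon, scaled so that each library sums to 1000000. Abca1 led with 499 ± 24.3 in I/R and 519 ± 111 in sham, at percentile 98.5 of all genes with a value above 0, followed by Npc2 with 306 ± 30.6 in I/R and 299.6 ± 15.5 in sham (SD, n = 3 each). Lipa, Mylip and Insig1 came next with 191 ± 38.7, 157 ± 29.8 and 158 ± 13.7 in I/R, and these 3 neighbours lay within one another's spread. Abcg1 followed with 113 ± 16.9 in I/R and 130.4 ± 30.3 in sham. The highest enzyme was Hmgcs1, with 72.4 ± 17.9 in I/R and 96.1 ± 31.7 in sham, within the spread of Nr1h2 at 70.0 ± 6.66 in I/R and 80.2 ± 11.2 in sham.

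The other enzymes lay lower than Hmgcs1, with Fdps at 48.0 ± 6.92 in I/R and 73.6 ± 19.2 in sham, above Npc1 at 45.2 ± 2.98 in I/R and 40.5 ± 9.71 in sham. Mvd had 14.0 ± 0.98 in I/R and 29.5 ± 3.71 in sham on this scale, at percentile 70.2, and the bottom of the order was held by Tm7sf2, Lss and Hsd17b7 at percentiles 46.7, 42.7 and 40.5. Lss and Hsd17b7 did not differ beyond their spread, with 3.13 ± 0.70 and 3.46 ± 0.56 in I/R. The 18 enzymes together took 476, 409 and 379 of that total in I/R libraries 1, 2 and 3, against 576, 429 and 650.3 in sham libraries 1, 2 and 3. The 13 other members took 1667, 1752 and 1748 in I/R, against 1854, 1809 and 1586 in sham, more than the enzymes in every library. Exon length was the union over all annotated transcripts, so genes with long unused exons read low on this scale.

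**Figure D5:**
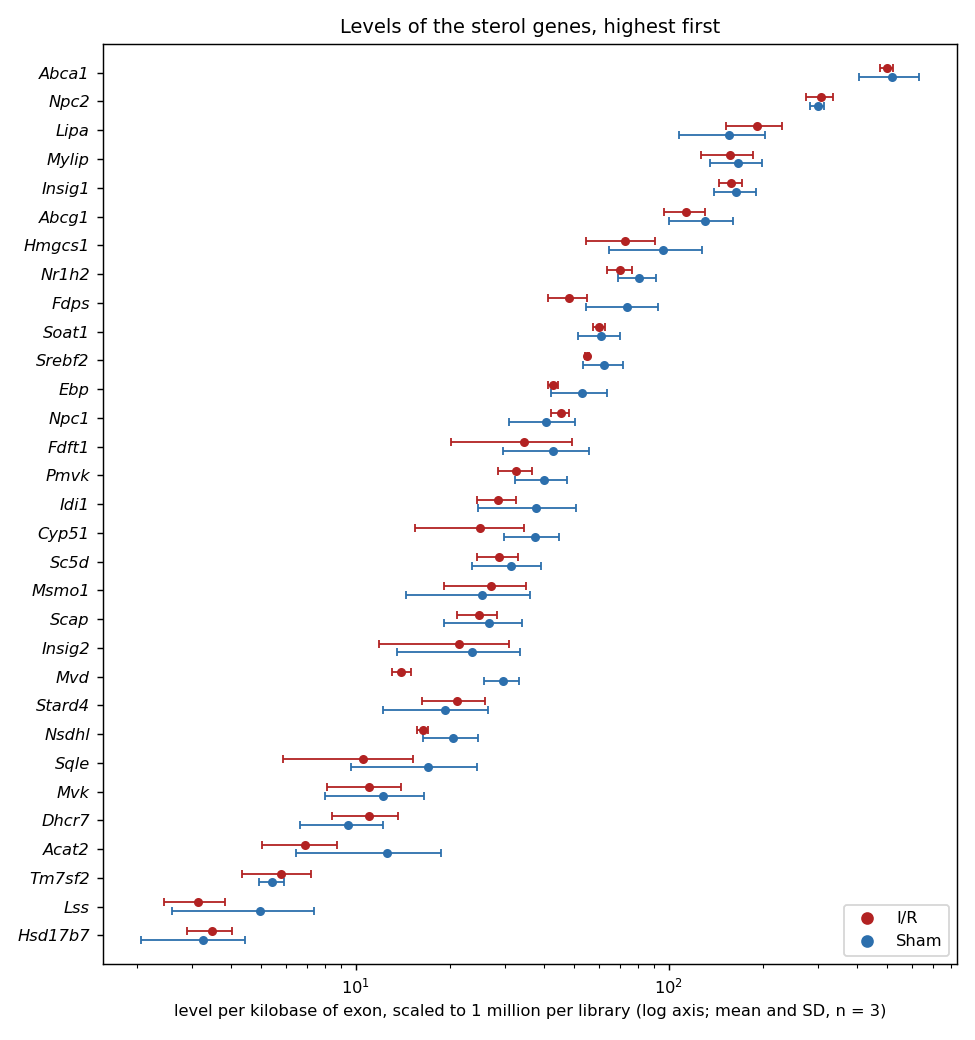
Level of each sterol gene per kilobase of exon, scaled to 1000000 per library, on a log axis, ordered from highest to lowest. Points are means and bars SDs of 3 libraries, I/R in red above sham in blue. Abca1 and Npc2 head the order, most enzymes lie below 50, and Mvd is the gene whose 2 points stand farthest apart relative to their bars.

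Another 30 genes of sterol synthesis, processing of SREBPs, transport and oxysterol metabolism, outside the members, were read from the same fit. Of these 0 passed in limma, 1 had an unadjusted p under 0.05 with a lower value in I/R and 0 with a higher one, 19 were negative and the median was -0.05. Over all tested genes 1.48% were lower and 2.96% higher at that level. The groups did not overlap for 1 of the 30 lower in I/R and 1 higher, and for 4.48% and 5.11% of all tested genes. Stard5, a sterol-binding transfer protein gene, had 319.5, 391 and 467 in I/R, against 611, 492 and 532 in sham, with no overlap between the groups. Its log2 fold change was -0.48 (SE 0.22, unadjusted p = 0.047, limma adjusted p = 0.985). Lrp8, a lipoprotein receptor gene, had 65.4, 79.8 and 68.5 in I/R, against 86.4, 9.31 and 14.3 in sham, where sham library 1 was the highest of all 6 (1.58, SE 0.75). This value was 2.52 without sham library 1 and 0.98 without sham library 2, and edgeR and DESeq2 gave 1.01 and 0.99. Mbtps2, encoding the protease that releases SREBPs inside the membrane, had 145, 166 and 145 in I/R, against 134, 106 and 78.9 in sham, without overlap and in the opposite direction (0.54, SE 0.31). Stard3, a late endosomal sterol transfer protein gene, had 316, 407 and 333 in I/R, against 559, 437 and 338 in sham (-0.31, SE 0.24). For Lrp8, Mbtps2 and Stard3 the limma adjusted p was 0.985.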

How the data were processed

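The deposited values are labelled normalised counts, a signal of gene counts scaled by the authors. Division by 1 factor per library was read from the whole multiples described below. Ribosomal RNA was depleted, per the labels' protocols. Named in the submitters' processing notes, without their roles, are the build mm10 and DESeq2 1.22.1, StringTie 1.3.3b, HISAT2 2.1.0 and Trim Galore 0.5.0. Each library's smallest nonzero value divides 100% of its values into whole numbers (tolerance 0.01), and these recovered counts served edgeR 4.0.16 and DESeq2 1.42.0 as alternatives. They may derive from coverage and not be read counts. A floor of 3 counts equals values of 1.83 to 4.89.

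Genes averaging 10 or more across all 6 libraries were compared, I/R against sham, in limma 3.58.1 (R 4.3.3) on log2(value + 1) with a trend, two-sided, with Benjamini-Hochberg adjustment over all 13434 and a threshold of 0.05. Log2 fold changes are on that scale, and the added 1 understates those of low genes. The fit was tested on simulated counts. Same-numbered libraries did not deviate together, so no block was used. Gene positions and exon lengths are GENCODE M21 (GRCm38), and promoters are RefSeq's, GRCm38.p6. Members, lists and motifs were chosen with earlier results of these data known. Named beyond the members were the 4 other sterol genes with the smallest p. The Mvd and Srebf2 promoters were chosen after their values were seen. Overlapping and antisense genes cannot be told apart, as strand use is not given in the sources used here.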

Additional observations from a re-analysis of the deposited data

How the results depend on the processing

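Of the 31 members 0 were called under any of the 18 alternatives, edgeR and DESeq2 included, and Mvd kept a negative log2 fold change in all of them (-1.20 to -0.99, adjusted p 0.397 to 1.0). The count over all genes, 4 as reported, was 1 with a filter at a mean of 50, 0 without the trend, 1 in edgeR, 42 in DESeq2, 0 without the shallowest library of each group (I/R 1 and sham 1), and 0 to 22 when 1 library was left out, with 22 without sham library 1 and 0 without any other. The replicate block, which uses numbers the libraries only share (correlation of deviations -0.020, -0.21 and -0.0014 for numbers 1, 2 and 3), gave 0 calls and changed no fold change. Leaving out 1 library gave medians of -0.73 to -0.43 for the mevalonate enzymes. Without the shallowest libraries it was -0.27 for the mevalonate enzymes and -0.27 for all enzymes, -0.076 for LXR and efflux, -0.29 for SREBP2 control and 0.25 for lysosomal genes, with Acat2 at -0.25, Fdps at -0.27, Idi1 at -0.15, Sqle at -1.24, Insig1 at 0.14, Stard4 at -0.29, Abca1 at 0.16 and Npc2 at 0.11. Quantile normalisation turned Tm7sf2 (-0.15), Hsd17b7 (-0.025), Abca1 (0.053), Npc2 (0.10) and Soat1 (0.025), equal totals Npc2 (0.045) and Soat1 (0.013), and edgeR and DESeq2 Npc2 (0.0062 and 0.0042). Leave-one-out ranges of genes whose sign turned were -0.45 to 0.040 for Mvk, -0.15 to 0.29 for Tm7sf2, -0.26 to 0.43 for Msmo1, -0.22 to 0.36 for Hsd17b7, -0.38 to 0.055 for Sc5d, -0.32 to 0.039 for Scap, -0.21 to 0.031 for Insig1, -0.47 to 0.15 for Insig2, -0.17 to 0.38 for Stard4, -0.20 to 0.12 for Abca1, -0.12 to 0.12 for Npc2 and -0.15 to 0.053 for Soat1. The cause of these changes was not tested. Motif counts before the start alone stayed within 1.5 times those of the whole window. Depth limits Acat2, Mvk, Mvd, Tm7sf2 and Hsd17b7, which had under 50 counts in at least 1 library.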
